A study of Mus musculus with 10 samples.

Results

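The genes described are 8 of the 23337 genes listed for right atrial RNA-seq of the mouse: the striated muscle ubiquitin ligase genes Fbxo32, Trim63, Trim54, Trim55 and Fbxo40 and the forkhead transcription factor genes Foxo1, Foxo3 and Foxo4. They were chosen by symbol as a gene family, with earlier results of these data known. The right atria of 4 mice labelled control (M1, M2, F1 and F2) and 6 mice labelled Tbx5 mutant (F1 to F3 and M1 to M3) were sequenced, with 1 library per mouse. The comparison asks which transcripts of the adult atrium depend on Tbx5, the T-box transcription factor of cardiac and limb development. In the mutant, a tamoxifen-inducible Cre under the ubiquitous R26 promoter is used to excise exon 3 of Tbx5, so that the excision is not aimed at heart muscle alone. All mice, controls included, received 0.167 mg tamoxifen per day by intraperitoneal injection for 3 days and were killed 1 week later. The strain is given as mixed, and the age as 8 to 10 weeks in the sample labels and 6 to 8 weeks in the protocol. The labels say of the control genotype only that it is control. The paper describes left atrium, with controls that carry the R26CreERt2 allele and mutants that are Tbx5 fl/fl;R26CreERt2, and the labels do not say whether the right atrial controls had that genotype.

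Several measurements bear on the labels. Reads of Tbx5 were more abundant in all 6 libraries labelled Tbx5 mutant than in all 4 labelled control, at 394 ± 83.3 CPM (counts normalised to library size by TMM, SD, n = 6) against 205 ± 17.8 CPM (SD, n = 4), a log2 fold change of 0.94 (SE 0.15, edgeR adjusted p = 0.000495). Reads were summed over all exons, and transcripts that lack exon 3 are not told apart from those that hold it, so groups are named by their labels. The controls labelled male held 7850 and 10149 reads of Xist and no read of Ddx3y, and the controls labelled female held 5 and 14 reads of Xist and 1124 and 1319 of Ddx3y, against their labelled sex. The mutant libraries matched their labelled sex. By these reads, a fit within 1 labelled sex sets controls of one sex against labelled mutants of the other, so that sex and group cannot be told apart in it. Libraries held 5703775 to 7095141 counts, of which the ribosomal RNA gene Rn45s took 38.9% in the library labelled Tbx5 mutant M3 and 0.268% to 1.49% in the others. The 5 atrial muscle markers summed to 41420 to 46940 CPM in control and 17730 to 33550 CPM in labelled mutant mice, and 5 of 5 were lower. Of the 4 ventricular markers, 3 were tested and 2 rose (Myl3 and Myl2), and the sum was 41.15 to 62.8 CPM against 608.6 to 848.4 CPM. Skeletal muscle markers summed to at most 18.97 CPM, and Myh1, Myh2, Myh4, Myf6 and Myod1 had at most 3 counts in any library.

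Muscle protein is marked for the proteasome by a small set of ubiquitin ligases that are largely restricted to striated muscle. Fbxo32 encodes atrogin-1, the F-box subunit that gives a cullin-based ligase its substrate, and Trim63 encodes MuRF1, a RING-finger ligase of the sarcomere. Both genes are transcriptional targets of the FoxO factors, which are held out of the nucleus when insulin or IGF1 signalling activates AKT. Both are known as markers of wasting in skeletal muscle, and both also limit growth of the heart.

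By edgeR's quasi-likelihood test over 13084 genes, the FoxO-regulated ligase Trim63 and the factors Foxo4 and Foxo1 were lower in the labelled mutant mice, with log2 fold changes of -0.42, -0.46 and -0.50, while the F-box gene Fbxo40 was higher by 0.68. The fall of Foxo1 did not pass in 7 of 24 other fits. Fbxo32, Trim54, Trim55 and Foxo3 did not pass an adjusted p of 0.05. Among all genes tested, 15.0% passed that threshold as lower and 16.3% as higher, against 3 and 1 of the 8 genes described, and the difference between these shares was not tested. With a fold change over 1.5 also required, 7.16% of all genes were called lower and 8.5% higher, against 0 and 1 (Fbxo40) of the 8. The median log2 fold change was -0.037 over the 8 genes and -0.005 over all genes tested. All 8 passed the filter on low counts, with 82 (Foxo1) to 2068 (Fbxo32) counts per library.

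Promoter sequence was taken from RefSeq (GRCm38.p6), which gave windows from 250 bases before to 50 bases after the transcription start for 5 of the 8 genes (Trim63, Trim54, Fbxo40, Foxo1 and Foxo3; not for Fbxo32, Trim55 and Foxo4). The windows were searched on both strands for the FoxO element TGTTTAC (reverse complement GTAAACA) and for the T-box element AGGTGTG (reverse complement CACACCT). The FoxO element occurred in 3.65% of 32851 promoter windows and the T-box element in 5.84%. Of the 5 genes, Trim63 held the FoxO element, once, from base -194 on the strand of the gene (chr4:134314926-134314932). None of the windows of the 5 genes held the T-box element, so no match of one element overlapped one of the other. The stretches upstream of Trim63 (chr4:134314870-134315119, forward strand) and of the first of the 2 starts listed for Fbxo40 (chr16:36990468-36990717, reverse strand) are shown, 5′ to 3′, because these are the ligases that fell and rose. Capitals mark the FoxO element.
Trim63: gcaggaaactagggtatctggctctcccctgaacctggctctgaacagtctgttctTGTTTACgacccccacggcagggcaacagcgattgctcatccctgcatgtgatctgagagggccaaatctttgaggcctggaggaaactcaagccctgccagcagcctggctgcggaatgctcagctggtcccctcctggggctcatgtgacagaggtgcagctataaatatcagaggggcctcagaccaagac
Fbxo40: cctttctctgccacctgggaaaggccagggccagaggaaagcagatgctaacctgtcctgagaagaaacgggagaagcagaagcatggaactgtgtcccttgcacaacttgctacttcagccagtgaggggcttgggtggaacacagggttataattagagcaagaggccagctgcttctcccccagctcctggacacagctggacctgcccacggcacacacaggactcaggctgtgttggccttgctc
A match of these letters is a description of the sequence, and binding was not measured in these libraries.

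Fbxo40, the F-box protein gene of striated muscle whose product is known as a ligase subunit for the insulin signalling adaptor IRS1, showed the largest change of the 8 genes. It lies on the reverse strand of chromosome 16 (GRCm38 chr16:36963460-36990467, GENCODE M21, ENSMUSG00000047746.14, 4 exons in its longest transcript). Its level was 55.15, 54.1, 60.67 and 74.31 CPM in control M1, M2, F1 and F2, and 83.35 CPM at the lowest, 95.33 CPM at the median and 121.7 CPM at the highest of the 6 labelled mutant mice. Every labelled mutant mouse was above every control. The means were 61.1 ± 9.29 CPM (SD, n = 4) and 98.0 ± 13.9 CPM (SD, n = 6), a fold of 1.60 and a log2 fold change of 0.68 (SE 0.12, edgeR adjusted p = 0.00103). A two-sided exact permutation test over the 210 splits of the 10 mice gave p = 0.00952, the smallest this design allows. The highest value came from mutant M3, the library rich in Rn45s, and without that library the log2 fold change was 0.61 (adjusted p = 0.00166).

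Trim63, the RING-finger ligase MuRF1 that binds titin at the M line, lies on chromosome 4 (chr4:134315120-134329629, forward strand, ENSMUSG00000028834.13, 9 exons). Control M1, M2, F1 and F2 had 196.6, 215.1, 219.0 and 209.0 CPM, and the labelled mutant mice had 141.3 CPM at the lowest, 156.7 CPM at the median and 178.1 CPM at the highest. All 6 labelled mutant mice lay below all 4 controls. The means of 210 ± 9.79 CPM and 157 ± 13.1 CPM (SD) gave a log2 fold change of -0.42 (SE 0.085, adjusted p = 0.00220, exact permutation p = 0.00952), and the fold of 0.747 did not reach the threshold of 1.5. Among the mice labelled male alone the log2 fold change was -0.39 and the adjusted p 0.126.

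Fbxo32, the gene of atrogin-1 on chromosome 15 (chr15:58175879-58214932, reverse strand, ENSMUSG00000022358.7, 9 exons), had the highest read count of the set. Its level in control M1, M2, F1 and F2 was 247.5, 268.5, 300.2 and 279.9 CPM, and in the labelled mutant mice 190.0 CPM at the lowest, 229.7 CPM at the median and 262.6 CPM at the highest. The groups overlapped, with 4 of 6 labelled mutant mice below all controls. The log2 fold change of -0.25 (SE 0.10) had an adjusted p of 0.0835 over all genes, beside an unadjusted exact permutation p of 0.0381. Without mutant M1 the adjusted p was 0.0412. With the trend of each library on transcript length removed the log2 fold change was -0.07 (adjusted p = 0.617). Of the 50-base words of its longest transcript, 2.57% also occur in other genes, and Gm15943 overlaps it on the opposite strand.

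The relatives of Trim63, the MuRF genes Trim54 (MuRF3, a microtubule-associated protein) and Trim55 (MuRF2), did not pass the test in either direction. Trim54 lies on chromosome 5 (chr5:31116712-31137630, ENSMUSG00000062077.14) and Trim55 on chromosome 3 (chr3:19644474-19692421, ENSMUSG00000060913.6), both on the forward strand. Trim54 had 68.87, 61.71, 91.4 and 91.09 CPM in control M1, M2, F1 and F2, and 81.56 CPM, 87.98 CPM and 100.8 CPM as the lowest, median and highest labelled mutant value. The groups overlapped, and the controls labelled male were the low ones. Its log2 fold change was 0.18 (SE 0.12, adjusted p = 0.258, exact permutation p = 0.210). The sign was not stable, at -0.01 with the length trend removed and -0.10 among the mice labelled female. Of the 50-base words of its longest transcript, 19.06% also occur in Gm15469, which overlaps it on the opposite strand, and whether reads were counted by strand is not given in the sources used here.

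Trim55 had 97.59, 111.7, 87.33 and 104.2 CPM in control M1, M2, F1 and F2. The labelled mutant values were 102.0 CPM at the lowest, 123.3 CPM at the median and 137.3 CPM at the highest. The groups overlapped, and 4 of 6 labelled mutant mice exceeded all controls, among them the 3 labelled female (132.8 to 137.3 CPM). The log2 fold change of 0.28 (SE 0.11) lay near the threshold, with an adjusted p of 0.0563 and an exact permutation p of 0.0571. It passed under 8 of 24 other settings, among them the fits without control M2 (adjusted p = 0.0431) and without mutant M1 (0.0279). In the mice labelled male the log2 fold change was 0.06 (adjusted p = 0.801) and in those labelled female 0.49 (0.0132), and this difference was not tested. Sex and group are confounded in both values. BC002189 overlaps Trim55 on the same strand, though 0.0% of the 50-base words of the longest Trim55 transcript occur in other genes.

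**Figure D1:**
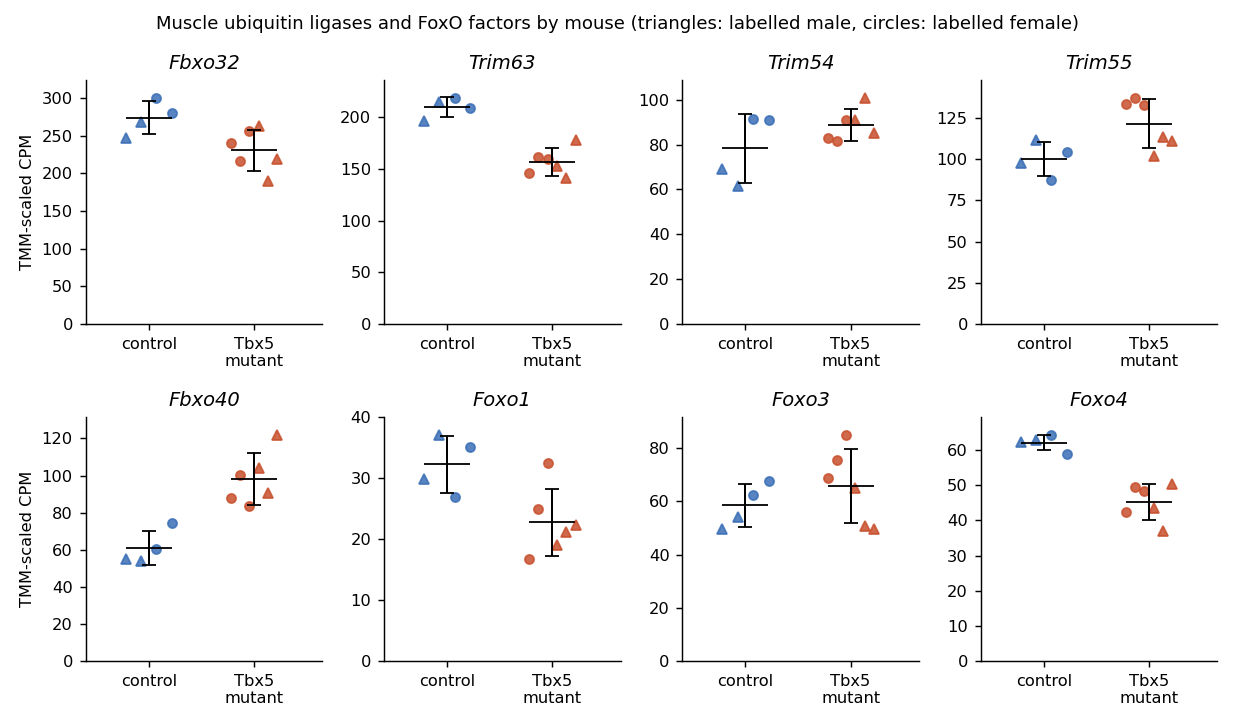
Level of each of the 8 genes in each mouse, in TMM-scaled CPM on axes from 0, for 4 mice labelled control and 6 labelled Tbx5 mutant. Points are mice, triangles labelled male and circles labelled female, and lines are the mean ± SD. Trim63 and Foxo4 lie lower in every labelled mutant mouse and Fbxo40 higher, and the groups overlap in the other 5 genes. The share of all genes tested that separate in this way is not given.

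Of the 3 FoxO genes, Foxo4 and Foxo1 passed the test as lower and Foxo3 did not pass. Foxo4, an X-linked gene (chrX:101254528-101260873, forward strand, ENSMUSG00000042903.8, 3 exons), had 62.3, 62.71, 64.12 and 58.88 CPM in control M1, M2, F1 and F2. The labelled mutant mice had 36.99 CPM at the lowest, 45.95 CPM at the median and 50.37 CPM at the highest. Every labelled mutant mouse was below every control, and the controls differed little among themselves. The means were 62.0 ± 2.22 CPM and 45.1 ± 5.15 CPM (SD), a log2 fold change of -0.46 (SE 0.095, adjusted p = 0.00262, exact permutation p = 0.00952). In the mice labelled male alone the log2 fold change was -0.52 with an adjusted p of 0.0648.

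Foxo1, the FoxO factor best known for insulin-regulated transcription, lies on chromosome 3 (chr3:52268336-52353221, forward strand, ENSMUSG00000044167.6, 3 exons). It was the least abundant of the set by reads, at 29.86, 37.06, 26.97 and 35.19 CPM in control M1, M2, F1 and F2 and at 16.72 CPM, 21.72 CPM and 32.47 CPM as the lowest, median and highest labelled mutant value. The groups overlapped through mutant F3, which held the highest labelled mutant value, while the other 5 were below all controls. The log2 fold change was -0.50 (SE 0.16, adjusted p = 0.0310, exact permutation p = 0.0381). It passed the adjusted threshold only narrowly, since the adjusted p was 0.0959 without control M2, 0.0834 without control F2, 0.0522 without mutant F1, 0.0597 without mutant M2 and 0.0521 without mutant M3. It also fell short with the length trend removed (-0.25, adjusted p = 0.297) and among the mice labelled female (-0.33, 0.366). Of the words of 50 bases in its transcript, 6.8% are shared with other annotated transcripts, and Gm20402 and Gm38034 overlap it.

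Foxo3 (chr10:42181841-42276755, reverse strand, ENSMUSG00000048756.11), a FoxO factor known to induce atrogin-1 in muscle, had 49.58, 54.1, 62.4 and 67.54 CPM in control M1, M2, F1 and F2. The labelled mutant values ran from 49.55 CPM over a median of 66.79 CPM to 84.74 CPM. The groups overlapped, with 3 labelled mutant mice above all controls and 1 below all controls. Its log2 fold change was 0.17 (SE 0.15, adjusted p = 0.394, exact permutation p = 0.410). The mice labelled female among the mutants held the 3 highest values.

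**Figure D2:**
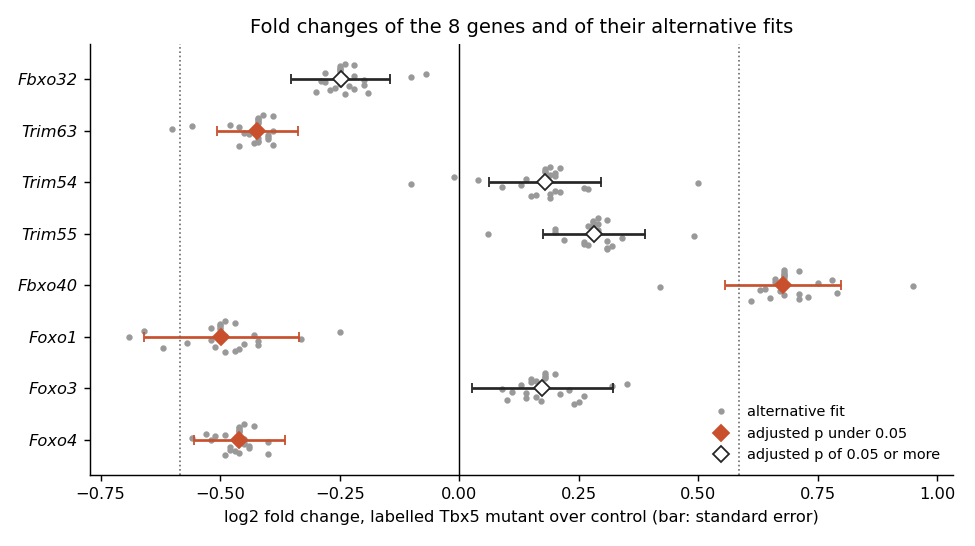
Log2 fold change of each gene, labelled Tbx5 mutant over control, with its standard error (diamonds and bars), beside 24 alternative fits (grey points). Filled diamonds have an adjusted p under 0.05 and dotted lines mark a fold of 1.5. Fbxo40 stays above 0 in all fits at 0.42 to 0.95, Trim63 and Foxo4 stay below 0, and Trim54 lies on both sides of 0.

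Markers of some other cell types moved with the group labels in these libraries, and others did not. Leukocyte markers summed to 163.5 to 235.3 CPM in control and 276.3 to 375.0 CPM in labelled mutant mice, with 4 of 4 tested members higher. Smooth muscle and pericyte markers (255.6 to 320.0 against 334.6 to 744.6 CPM) also did not overlap, with 3 of 6 higher (Acta2, Tagln and Pdgfrb). Nor did proliferation genes (11.5 to 26.14 against 71.08 to 239.8 CPM, 5 of 5 higher). Endothelial sums overlapped (935.7 to 1332 against 1043 to 1245 CPM, 0 of 5 lower or higher). Fibroblast sums (2650 to 3303 against 3241 to 4467 CPM, 1 of 6 lower and 2 higher) overlapped as well. So did those of adipocyte (0 tested) and erythrocyte markers (2 of 2 tested higher). The sums of 8 cardiomyocyte markers overlapped, at 101300 to 157500 CPM and 67050 to 137000 CPM, with 1 of 8 lower (Ryr2) and 4 of 8 higher (Tnnt2, Pln, Ckm and Actn2). FoxO genes are expressed in most cell types, the ligases mainly in muscle cells. In bulk tissue fewer cells of a type and less RNA per cell cannot be told apart, and the part of these markers in the results was not tested.

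The ratio of a pair of genes within a mouse needs no scaling between libraries and was compared for 8 pairs, with Benjamini-Hochberg adjustment over the 8. Within the MuRF family, the log2 ratio of Trim63 to Trim55 counts was 1.01, 0.95, 1.33 and 1.00 in control M1, M2, F1 and F2 and 0.13 to 0.68 in the labelled mutant mice. No labelled mutant mouse reached the control range, and the difference was -0.70 (SE 0.12, exact permutation p = 0.00952, adjusted p = 0.0254). The ratio of Trim63 to Trim54 was also lower in all labelled mutant mice, with a difference of -0.62 (SE 0.16, exact permutation p = 0.00952, adjusted p = 0.0254). The ratio of Trim54 to Trim55 differed by -0.08 (SE 0.22, exact permutation p = 0.686), and its sign turned to 0.07 without control F1. Both Trim63 ratios had an adjusted p of 0.0635 without control M1 or without control M2, where fewer splits of the mice are possible.

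The ratio of the F-box genes changed, though by itself Fbxo40 passed the edgeR test and Fbxo32 did not. The log2 ratio of Fbxo32 to Fbxo40 counts was 2.16, 2.31, 2.31 and 1.91 in control M1, M2, F1 and F2 and 0.85 to 1.62 in the labelled mutant mice, without overlap. The difference was -0.94 (SE 0.15, exact permutation p = 0.00952, adjusted p = 0.0254, and 0.0635 without control M1 or M2). Fbxo32 and Trim63, the atrophy pair, differed in ratio by 0.17 (SE 0.087, exact permutation p = 0.200, adjusted p = 0.267), with overlapping groups.

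Among the FoxO genes, the log2 ratio of Foxo3 to Foxo4 was -0.33, -0.21, -0.04 and 0.20 in control M1, M2, F1 and F2 and -0.02 to 0.81 in the labelled mutant mice. Mutant M3 was the labelled mutant mouse inside the control range. The difference was 0.62 (SE 0.17, exact permutation p = 0.0190, adjusted p = 0.0305). The ratio of Foxo1 to Foxo3 differed by -0.68 (SE 0.20, exact permutation p = 0.0190, adjusted p = 0.0305), also with overlap. Both calls were lost when mutant F1, F2, F3, M1 or M2 was left out (adjusted p = 0.0508), and when control M1 or M2 was left out (0.0762). The call for Foxo3 to Foxo4 was also lost without control F1 and that for Foxo1 to Foxo3 without control F2 (0.0762 each). The ratio of Foxo1 to Foxo4 differed by -0.06 (SE 0.17, exact permutation p = 0.752).

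**Figure D3:**
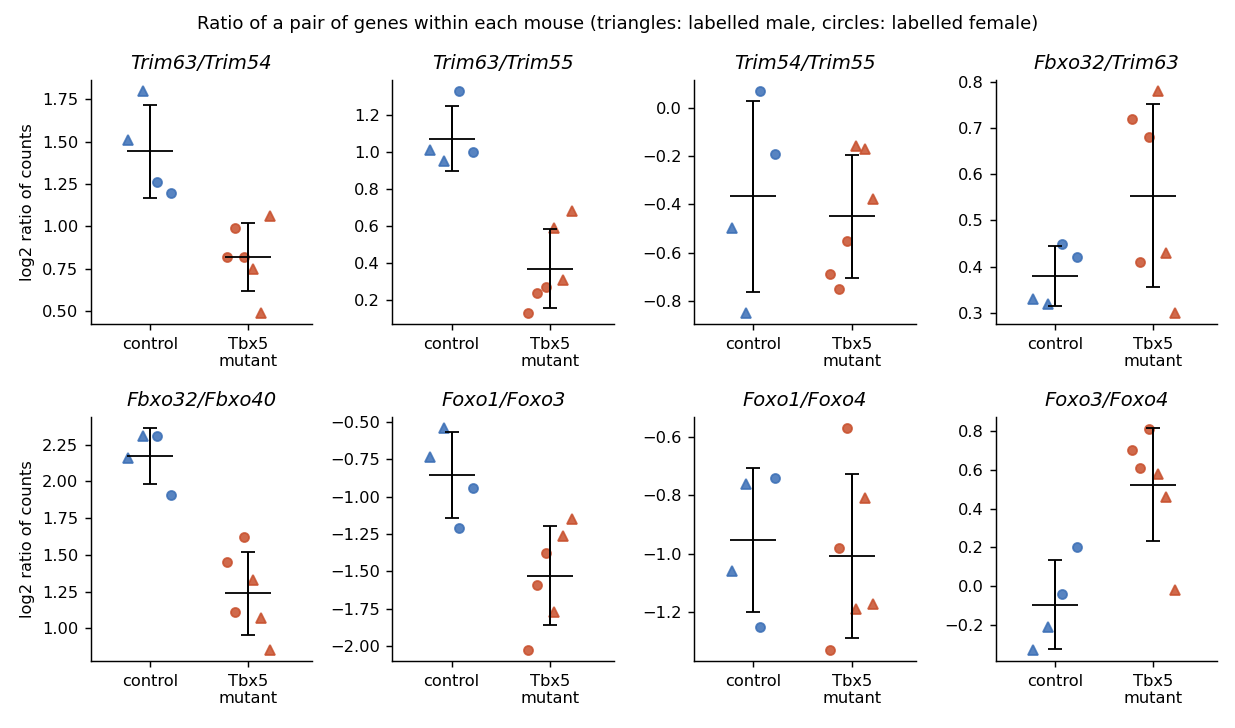
Log2 ratio of the counts of a pair of genes within each mouse, for 8 pairs, in 4 mice labelled control and 6 labelled Tbx5 mutant, on axes that do not start at 0. Points are mice (triangles labelled male, circles labelled female) and lines are the mean ± SD. The groups do not overlap for Trim63/Trim54, Trim63/Trim55 and Fbxo32/Fbxo40, where the labelled mutant mice lie lower.

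Levels of different genes were set side by side per kilobase of the longest annotated transcript, as a description. In control atria Trim63 had the highest level at 111 ± 5.19 CPM per kb (SD, n = 4), followed by Trim54 at 54.6 ± 10.7, Fbxo32 at 39.3 ± 3.16 and Trim55 at 38.6 ± 3.98. The ranges of Trim54 and Fbxo32, and of Fbxo32 and Trim55, overlapped. Foxo4 followed at 19.6 ± 0.703 CPM per kb, then Fbxo40 at 11.9 ± 1.81, Foxo3 at 8.53 ± 1.18 and Foxo1 at 3.72 ± 0.539, and none of these neighbours overlapped.

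In the labelled mutant atria Trim63 was again highest, at 83.2 ± 6.96 CPM per kb (SD, n = 6), before Trim54 at 61.8 ± 4.96. Trim55 (46.9 ± 5.66) stood above Fbxo32 (33.1 ± 3.93) and Fbxo40 (19.1 ± 2.71) above Foxo4 (14.3 ± 1.63), each pair without overlap, where Fbxo32 and Trim55 had overlapped in control and Foxo4 had stood above Fbxo40. Foxo3 at 9.59 ± 2.01 CPM per kb overlapped Foxo4, and Foxo1 was lowest at 2.63 ± 0.637. Of the summed level per kb of the 3 MuRF genes, Trim63 made up 54.5 ± 2.19% in control and 43.3 ± 2.86% in labelled mutant mice. Of the 3 FoxO genes, Foxo4 made up 61.6 ± 3.19% and 54.1 ± 4.31%, and Foxo3 26.7 ± 3.01% and 36.0 ± 4.30%.

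The other genes of the pathway were described with 7 lists of 170 genes in all, of which 162 were tested, with 12 called lower and 7 higher at the fold change threshold, beside 7.16% lower and 8.5% higher over all genes tested. These shares over all genes are also the background of the counts of each list that follows. The list of other muscle ubiquitin ligases and their partners had 37 tested genes, 4 called lower and 3 higher, and a median log2 fold change of -0.154. Asb14, a SOCS-box ligase subunit of muscle, fell from 71.1 ± 5.93 to 27.1 ± 6.00 CPM (log2 fold change -1.40, SE 0.15, adjusted p = 2.04e-05). Nedd4l, a HECT ligase for membrane channels, fell from 73.6 ± 10.7 to 43.1 ± 4.27 CPM (-0.77, SE 0.11). With the length trend removed Nedd4l was at -0.56 (edgeR adjusted p = 0.0015), short of the fold threshold. Asb10, another SOCS-box gene, was also lower (-0.62, SE 0.17, adjusted p = 0.0137), but did not pass without control F1 or among the mice labelled male (adjusted p of at most 0.274).

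The 3 ligase genes called higher were Fbxl22, Asb2 and Trim72. Fbxl22, an F-box subunit of the cardiac Z disc, rose from 41.8 ± 3.33 to 98.8 ± 16.9 CPM (log2 fold change 1.24, SE 0.13, adjusted p = 1.74e-05). Asb2, which targets filamins and desmin, rose from 232.6 ± 26.8 to 390.7 ± 42.2 CPM (0.75, SE 0.11), and Trim72, the membrane repair protein MG53, rose from 129.7 ± 29.2 to 203.7 ± 19.2 CPM (0.65, SE 0.13, adjusted p = 0.00249). The value of Trim72 among the mice labelled female was 0.31 (adjusted p = 0.0975). With the length trend removed it was 0.53 (edgeR adjusted p = 0.00669), short of the fold threshold.

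Of 28 tested FoxO target genes, 2 were called lower and 1 higher, with a median log2 fold change of -0.076. The stress-response gene Sesn3 fell from 17.4 ± 3.07 to 9.73 ± 1.47 CPM (-0.83, SE 0.15), and Bcl2l11, which encodes the apoptosis inducer BIM, fell from 37.7 ± 4.52 to 23.0 ± 4.44 CPM (-0.72, SE 0.14). Sesn3 did not pass with the replicate block and the length trend removed together (adjusted p = 0.0657), nor Bcl2l11 among the mice labelled male (0.0654). With the length trend alone removed Sesn3 was at -0.56 (edgeR adjusted p = 0.0169), short of the fold threshold. Tnfrsf12a, the receptor for the cytokine TWEAK, rose from 14.3 ± 5.03 to 87.4 ± 49.3 CPM (2.60, SE 0.38, adjusted p = 0.000205), with labelled mutant values from 53.38 to 175.3 CPM.

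In insulin and AKT signalling, which phosphorylates FoxO proteins, 2 of 28 tested genes were called lower and 1 higher, with a median of -0.192. The AKT-related kinase gene Sgk3 fell from 70.3 ± 3.93 to 37.5 ± 2.47 CPM (-0.91, SE 0.08, adjusted p = 4.08e-06). Phlpp1, an AKT phosphatase, fell from 54.9 ± 4.89 to 33.8 ± 4.58 CPM (-0.69, SE 0.11). With the length trend removed Phlpp1 was at -0.54 (edgeR adjusted p = 0.00112), short of the fold threshold. The kinase gene Sgk1 rose instead, from 38.7 ± 1.92 to 65.7 ± 10.7 CPM (0.77, SE 0.12, adjusted p = 0.000375), though not past the threshold among the mice labelled male (adjusted p = 0.0568).

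Of the 22 FoxO modifiers and cofactors 3 were called lower and 0 higher, and the median was -0.046. They were the scarce FoxO family member Foxo6 (4.86 ± 0.548 to 2.33 ± 0.424 CPM, log2 fold change -1.08, SE 0.19), the coactivator gene Ppargc1a (158.8 ± 19.6 to 92.0 ± 18.0 CPM, -0.79, SE 0.14) and Prkaa2, the AMPK catalytic subunit of muscle (378.8 ± 31.1 to 225.0 ± 36.5 CPM, -0.75, SE 0.12). Among the mice labelled male, Foxo6 (adjusted p = 0.101) and Prkaa2 (0.0569) did not pass. With the length trend removed Prkaa2 was at -0.54 (edgeR adjusted p = 0.00181), short of the fold threshold. Without a fold threshold 6 of the 22 passed the adjusted p as lower and 0 as higher, beside the 15.0% and 16.3% of all genes. In the other lists these counts were 6 and 0 of 20 upstream atrophy regulators and 7 and 2 of 28 insulin and AKT genes. They were 7 and 3 of 28 FoxO targets and 8 and 4 of 37 muscle ligases and partners. Genes for bound or degraded proteins gave 2 and 6 of 21, and autophagy and lysosome genes 1 and 1 of 22.

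Among 20 tested upstream regulators of muscle atrophy genes, such as receptors for myostatin and glucocorticoids, 1 was called lower and 0 higher (median -0.085). It was the activin receptor gene Acvr2b (3.01 ± 0.699 to 1.86 ± 0.494 CPM, log2 fold change -0.72, SE 0.26, adjusted p = 0.0456), which did not pass in 15 of 23 other fits. Of 21 tested genes for proteins that the ligases bind or degrade, 0 were called lower and 2 higher (median 0.034). Mybpc3, the cardiac myosin binding protein C, rose from 1750 ± 273.8 to 4866 ± 157.3 CPM (1.48, SE 0.13, adjusted p = 3.89e-06), and Tcap, the titin cap protein telethonin, from 769.7 ± 182.4 to 1406 ± 231.6 CPM (0.87, SE 0.17). None of 22 autophagy and lysosome genes was called (0 lower and 0 higher by edgeR, 1 in each direction at an adjusted p under 0.05 alone), and their median was 0.035.

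**Figure D4:**
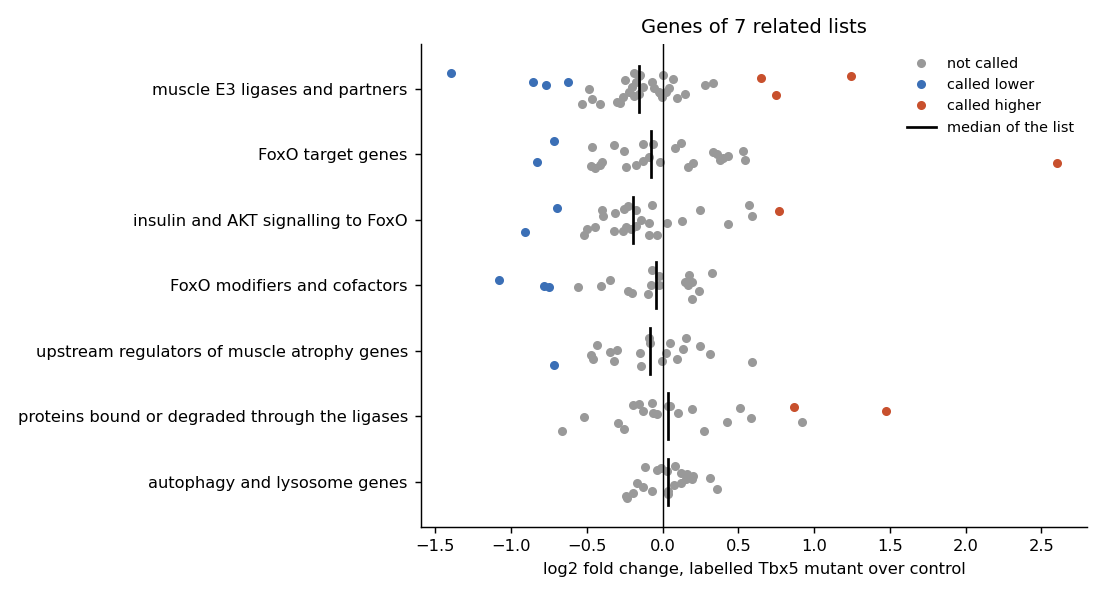
Log2 fold changes, labelled Tbx5 mutant over control, of the tested genes of 7 related lists. Each point is 1 gene, blue called lower and red called higher at an adjusted p under 0.05 and a fold over 1.5, and the black bar is the median of the list. The medians lie between -0.192 and 0.035, and the farthest point is Tnfrsf12a at 2.60.

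The genes whose pattern over the 10 mice was nearest to that of Fbxo40 were found among 9268 genes with a mean of at least 10 CPM, by the root mean square difference of log2 CPM centred on each gene's mean. They were Twf2, an actin monomer binding protein gene (0.101), Ckm, the muscle creatine kinase gene (0.114), and Slc25a13, a mitochondrial aspartate-glutamate carrier gene (0.116), beside a spread of Fbxo40 itself of 0.378 and a median over all these genes of 0.425. Their log2 fold changes were 0.61, 0.58 and 0.60, and values near that of Fbxo40 follow from how these genes were chosen. Among the mice labelled female, Twf2 (adjusted p = 0.0723) and Ckm (0.137) did not pass.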

How the data were processed

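Right atrial RNA was sequenced from 10 mice. The authors deposited 1 table with whole-number counts of reads per gene and library. A second block gives a normalised signal, each count over a DESeq2 size factor, and their own comparison (log2 fold change, Wald score, p-value, adjusted p-value and linear fold ratio, as deposited), which was not used. The submitters' processing notes name FastQC, TopHat2 2.0.11, featureCounts, DESeq2 and mm10. The labels name both an mRNA kit and ribosomal RNA depletion.

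The 8 genes, the pathway lists and the tests were chosen with earlier results of these data known. The count test was edgeR 4.0.16 under R 4.3.3 (expression filter, TMM, prior count 0.125, quasi-likelihood test, no covariate). SE is the size of the change divided by the root of its F statistic. A gene was called at an adjusted p under 0.05, a fold over 1.5 and a mean control signal over 1. Within-mouse log2 ratios used a pseudocount of 0.5 counts. Permutation tests (scipy 1.17.1) were two-sided and exact over 210 splits, with a smallest p of 0.00952. Lengths came from the longest GENCODE M21 transcript, found for 20953 of 23337 genes. Named genes were the 8, the library checks, up to 4 called genes per list and direction with the largest change, and the 3 genes nearest in pattern to each called member. Labels give 1 mouse per library, and p-values set the group difference against the spread between these mice. Same-numbered mice are different animals. The values of 1 gene of the lists are not reported here. No libraries repeated one another (chi-square per degree of freedom at least 3.777 in 21 pairs). At most 3 counts were taken as not detectable. SDs and SEs hold the spread between mice together with counting error. The edgeR fit was tested on simulated counts. Alternatives were DESeq2 1.42.0, limma 3.58.1, other scalings and filters, labelled sex, a replicate block, length or GC offsets (lowess span 0.4), counts without Rn45s, other thresholds, and each library left out.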

Additional observations from a re-analysis of the deposited data

Results flagged for a closer look

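The log2 ratio of Trim63 to Trim55 counts in control F1 was 1.326, apart from the nearest other control at 1.01. This gap was 0.8294 of the range of the 4 controls. Of 34 groups of values examined in this way, about 1.7 would stand out by chance and 1 did.

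The log2 fold change of Trim54 was 0.50 among the mice labelled male (edgeR adjusted p = 0.0527) and -0.10 among those labelled female (0.540), and neither passed the threshold. Within each labelled sex the groups did not overlap, though among the mice labelled female the nearest values were 90.73 CPM (mutant F3) and 91.09 CPM (control F2). With so few mice in each labelled sex a gene can separate by chance, and the share of all genes that do is not given. The difference between the sexes was not tested. The labelled sex of the controls goes against their Xist and Ddx3y reads, so that each value sets controls of one sex against labelled mutants of the other.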

How the results depend on the processing

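Fbxo40 passed in all 24 alternative fits (log2 fold change 0.42 to 0.95, adjusted p at most 0.0446). Among the mice labelled male, Trim63 (-0.39) and Foxo4 (-0.52) did not pass, Trim63/Trim55 differed by -0.45 and Trim54/Trim55 by 0.44, 1 of the 8 genes was called lower, and 11 pathway genes were called higher. Among those labelled female, Foxo1 (-0.33) did not pass, Trim55 (0.49) did, Trim54 turned to -0.10, Trim63/Trim55 differed by -0.95 and Trim54/Trim55 by -0.60, and 0 of the 8 were called higher. With the length trend removed, Trim54 turned to -0.01 and Foxo1 (-0.25) did not pass. In that fit 8 pathway genes were called lower and 8 higher. Log2 fold change and length correlated at a Spearman rho of -0.314 across 11868 genes, which are not independent replicates. Trim55 passed with DESeq2 size factors, DESeq2, GC offsets and counts without Rn45s (0.29 each) and with upper-quartile scaling (0.31). Genes called lower numbered 937, but 367 at a fold over 2 and 1967 without a fold threshold. Those called higher numbered 1112, but 653 at a mean count of at least 50, 539 at a fold over 2 and 2129 without a fold threshold. Of the 8 genes, 0 were called lower and 1 higher, but 3 lower without a fold threshold and 0 higher at a fold over 2. Of the pathway genes 12 were called lower and 7 higher, but 2 and 3 at a fold over 2 and 35 and 15 without. Mice with the same label, such as control M1 and mutant M1, did not deviate together (correlations -0.047 to 0.0358). By Xist and Ddx3y reads these pairs are of opposite sex. Pairs of the same number and read sex gave 0.276 (control M1, mutant F1) and 0.0298 (control M2, mutant F2). They also gave 0.265 (control F1, mutant M1) and 0.223 (control F2, mutant M2). The replicate block joined mice by label, and no block by read sex was fitted. With a replicate block 1 of the 8 genes, Foxo1 (-0.66, adjusted p = 0.00232), was called lower and no other call of the 8 changed. With the block and the length trend removed together 1 was called lower, Trim63, and Foxo3 (0.32) passed. Leaving out 1 mouse at a time, log2 fold changes ran from -0.30 to -0.19 for Fbxo32, 0.22 to 0.34 for Trim55, 0.09 to 0.27 for Trim54, 0.10 to 0.26 for Foxo3 and -0.62 to -0.42 for Foxo1, and 0 to 1 of the 8 genes were called lower (Foxo1, without mutant F3). Ratios ran from -0.70 to -0.50 for Trim63/Trim54, -0.76 to -0.62 for Trim63/Trim55, -0.24 to 0.07 for Trim54/Trim55, -1.02 to -0.86 for Fbxo32/Fbxo40, -0.79 to -0.57 for Foxo1/Foxo3, -0.16 to 0.01 for Foxo1/Foxo4 and 0.54 to 0.73 for Foxo3/Foxo4. Lost ratio calls had adjusted p-values of 0.0508 to 0.0762, with fewer splits possible, and the cause of the other changes was not tested.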

Other observations

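Beyond the genes named by the rule, Irs1, Akt1 and Akt2 were chosen after their values were seen. The choice was made because they belong to the insulin pathway upstream of the FoxO factors and because IRS1 protein is a known substrate of FBXO40. The values that follow are of RNA, and IRS1 protein was not measured. Irs1 had a mean of 93.5 CPM in control and 65.3 CPM in labelled mutant mice, a log2 fold change of -0.52 (SE 0.10, edgeR adjusted p = 0.00235, n = 4 and 6). With the length trend removed it was -0.25 (adjusted p = 0.149), and it did not pass in 3 of 24 other fits, the mice labelled male among them (adjusted p of at most 0.303). The kinase gene Akt1 rose from 169.9 to 252.5 CPM (log2 fold change 0.57, SE 0.08, edgeR adjusted p = 0.000159). Akt2 was lower, at 71.0 against 54.1 CPM (-0.39, SE 0.09, edgeR adjusted p = 0.00406), though not among the mice labelled male alone (adjusted p = 0.178).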
